A study of Mus musculus with 6 samples.

Results

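Transcripts of 10 genes of the Notch pathway were followed through 6 RNA-seq libraries of the mouse thymoma line 427. The genes were 3 receptors (Notch1, Notch2 and Notch3), 4 ligands (Jag1, Jag2, Dll1 and Dll4), the nuclear partner Rbpj, and 2 target genes (Hes1 and Hey1). Members were chosen by gene symbol. Each symbol was found once among the 25001 loci of the deposited files, of which 22601 carried a symbol, so all 10 genes had a value in all 6 libraries.

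The 427 cells carried the empty pSUPER vector and received DMSO or 1 µM PMA for 2 h, after 2 h without serum. PMA is a phorbol ester that activates protein kinase C and sets off the shedding of membrane proteins, epithin/PRSS14 among them. The other 4 libraries were labelled SPPL2b KD, a knockdown of the intramembrane protease SPPL2b. They were treated with DMSO, with PMA as for the 427 cells, with a GFP vector, or with a GFP vector plus Flag-tagged EICD, the intracellular domain of epithin/PRSS14. The transfected cells were sorted for GFP. The question put to these libraries was which transcripts follow the release of EICD, by PMA or by expressing it directly. The labels give siRNA as the knockdown agent, whereas the study's methods describe a stable shRNA in single-cell clones, with the transfections done in 1 of the clones. Neither says which clone gave the DMSO and PMA libraries. Serum deprivation is not stated for the KD-labelled DMSO library or for the transfected cells. Each condition was 1 library, so that no spread between replicates exists, no p-value is given, and a difference between libraries cannot be separated from one between cultures.

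Notch receptors are single-pass membrane proteins that are cleaved when a ligand on a neighbouring cell binds them, first by an ADAM protease and then by gamma-secretase. The freed intracellular domain enters the nucleus, joins the DNA-binding protein RBPJ and switches on targets such as Hes1 and Hey1, which encode transcriptional repressors. In the thymus, Delta-like ligands on epithelial cells, above all Dll4, direct incoming progenitors to the T cell lineage.

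Expression was measured as FPKM, that is, fragments scaled by transcript length and by the number of mapped fragments, which is a level per length. The depth estimated from the smallest FPKM steps was 25500000 to 29400000 fragments a library, and 10555 to 10873 loci reached 1 FPKM. A comparison was the log2 ratio of 2 libraries with 0.01 added to each, over loci with a symbol and 1 FPKM or more in at least 1 of them, and a locus was called when it passed 2-fold. Markers described the cells as epithelial. All 6 epithelial markers found exceeded 1 FPKM in every library, with a summed level of 2638 to 4436 FPKM, in which Krt14 was the highest. Of the thymic epithelial markers Foxn1 (6.37 to 15.2 FPKM) and Ly75 were present, whereas Aire and Pax1 were listed at 0, and none of the 6 T lineage markers found reached 1 FPKM. Leukocyte markers summed to 4.47 to 8.68 FPKM. Of these Csf1r had 2.37 to 7.35 FPKM and Cd68 1.25 to 2.58, while Ptprc had at most 0.0496 and Adgre1 was listed at 0. Endothelial markers summed to at most 0.431 FPKM.

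In these libraries the targeted gene did not follow its label. Sppl2b stood at 9.90 FPKM in the 427 DMSO library and at 13.4 in the KD-labelled DMSO library, a log2 ratio of 0.44. Its deposited locus runs 2269 bases past the annotated gene across Lsm7 on the opposite strand, and the strand setting is not stated, so that reads of Lsm7 cannot be told from its own. Lsm7 itself had 69.5 and 33.6 FPKM in these libraries. The study also checked the knockdown by assays that are not analysed here. Directions drawn below from the KD label carry this limit. The transfected EICD followed its label, with the St14 (epithin/PRSS14) locus at 69.6 FPKM in the GFP library and 614.5 FPKM in the EICD library. EICD is a short part of the protein, and FPKM is given for the whole locus. The value is therefore not a level of full-length St14.

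Start regions are shown for 3 members on which the comparisons below turn: Dll1 and Rbpj, the members past 2-fold with PMA, and Notch3, the member with the largest log2 ratio with EICD among those that reached 1 FPKM. Each is the 250 bases before a RefSeq start (GRCm38.p6), written 5′ to 3′ on the strand of the gene, for Rbpj only the first 118 of them, which lie before an annotated exon. Capitals mark a match, on either strand, to 1 of 3 motifs. These are TGGGAA (the RBPJ core), TGANTCA and CACNAG (the N-box bound by Hes proteins), where N is any base. TGANTCA is a loose form of the site of AP-1 factors, which phorbol esters activate.
Dll1, chr17:15376933-15377182, minus strand: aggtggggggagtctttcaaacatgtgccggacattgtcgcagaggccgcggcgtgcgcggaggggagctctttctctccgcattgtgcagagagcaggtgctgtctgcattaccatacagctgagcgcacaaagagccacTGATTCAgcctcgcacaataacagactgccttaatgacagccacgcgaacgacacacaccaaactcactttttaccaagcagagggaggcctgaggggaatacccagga
Rbpj, chr5:53590096-53590213, plus strand: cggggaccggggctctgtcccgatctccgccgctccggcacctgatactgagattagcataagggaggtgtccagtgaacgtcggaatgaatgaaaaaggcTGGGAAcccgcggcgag
Notch3, chr17:32166891-32167140, minus strand: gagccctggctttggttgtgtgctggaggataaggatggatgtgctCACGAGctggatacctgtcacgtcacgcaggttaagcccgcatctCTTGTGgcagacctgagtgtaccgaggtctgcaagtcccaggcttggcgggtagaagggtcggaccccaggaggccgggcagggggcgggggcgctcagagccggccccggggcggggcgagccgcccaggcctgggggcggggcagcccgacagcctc
The Dll1 region held 1 match to the loose form TGANTCA, 109 to 103 bases before the start, with T as its central base. Whether AP-1 factors bind this form was not tested. All 250 bases lie in an exon of the non-coding gene A930024N18Rik on the opposite strand. A second Dll1 window, at a start inside the deposited locus, held no match to any of the 3 motifs. The Rbpj region, at a start inside the long deposited locus, held 2 RBPJ-core matches in its 250 bases, at 149 to 144 and, in the part not printed, at 65 to 60 bases before the start. The Notch3 region held 2 N-box matches, and the windows of Notch1, Notch2 and Dll4 held 1 each. Of 32851 windows of this length in the table, 6.75% held TGANTCA, 21.6% TGGGAA and 36.7% CACNAG. Windows were found for 8 of the 10 members, 10 windows in all, and Hes1 and Hey1 were not among them. No other member window held TGANTCA, and TGGGAA was otherwise found in the overlapping second Rbpj window. These matches are letters in a window and show no binding.

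The ligands were led by Jag2, Dll1 and Jag1. In the 427 DMSO library they had 68.5, 64.5 and 46.3 FPKM, against 0.144 FPKM for Dll4. Of the receptors, Notch1 had 39.3 FPKM, Notch2 18.4 and Notch3 6.29. Hes1 was a well-expressed target with 41.3 FPKM and Hey1 a scarce one with 0.996 FPKM, while Rbpj had 22.2 FPKM. The order in the KD-labelled DMSO library was alike except at the top, where Dll1 (61.3 FPKM) stood above Jag2 (53.4 FPKM). Without replicates it cannot be said which neighbours in these orders differ. The cells thus listed both sides of the signal, receptors and ligands, with the thymic ligand Dll4 near 0. At the estimated depth Dll4 rested on about 2.94 to 16.4 fragments a library and Hey1 on 25.4 to 86.8, against 919 or more for each of the other 8 genes.

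**Figure D1:**
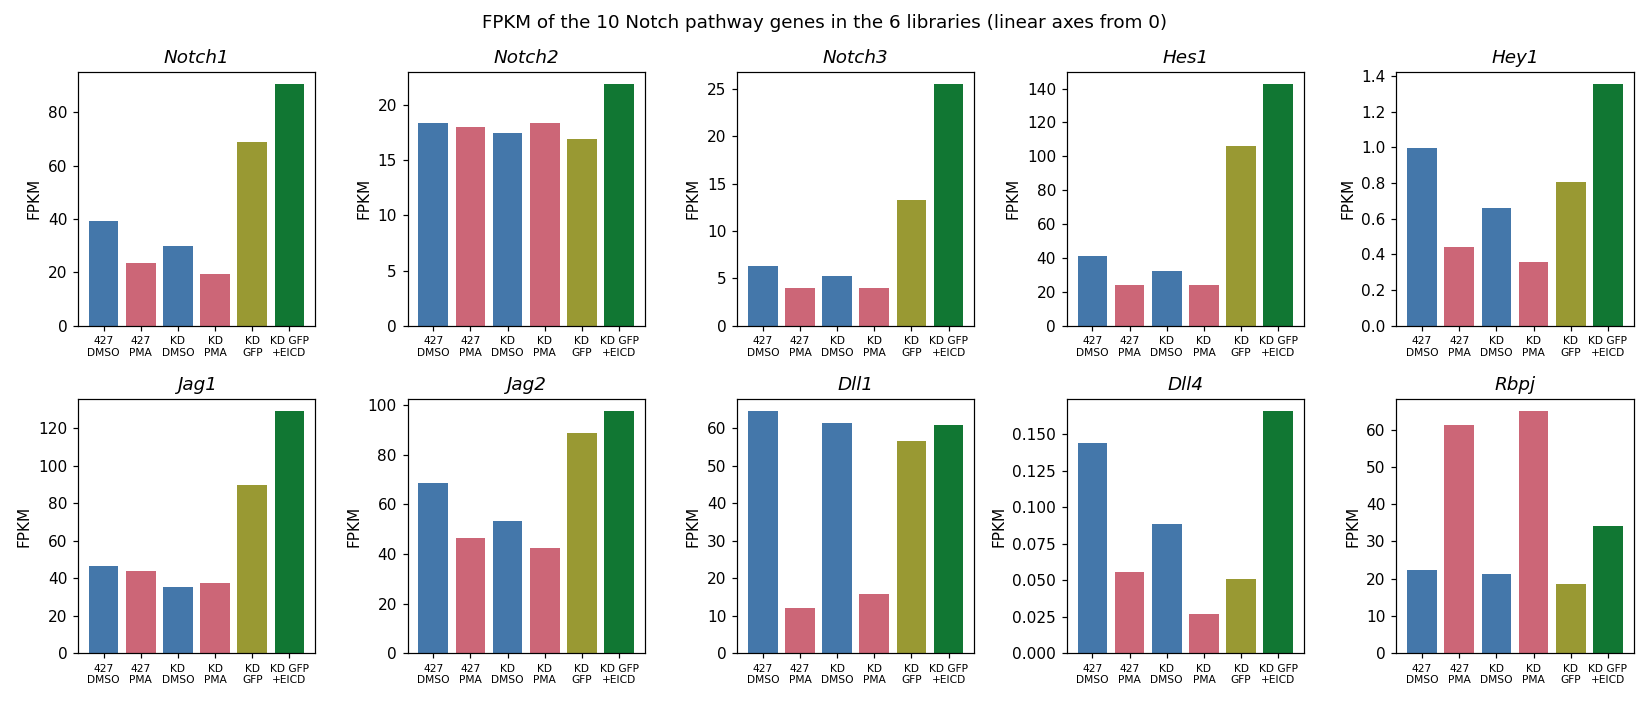
FPKM (linear axes from 0, a scale for each gene) of the 10 genes in the 6 libraries, 1 bar per library with no error bar because each condition is 1 library. Dll1 is low and Rbpj high in both PMA libraries, while Notch1, Notch3, Jag1, Jag2 and Hes1 are highest in the 2 transfected libraries.

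PMA was followed by opposite changes in the ligand Dll1 and the nuclear partner Rbpj, in both the 427 and the KD-labelled cells. Dll1, a Delta-type ligand, had 64.5 FPKM with DMSO and 11.95 with PMA in 427 cells, and 61.3 and 15.6 FPKM in KD-labelled cells. Rbpj had 22.2 and 61.4 FPKM in 427 cells and 21.3 and 65.0 FPKM in KD-labelled cells. In both genes, both PMA libraries stood apart from the other 4 libraries. In these bulk libraries fewer cells with a transcript and less of it per cell cannot be told apart. Dll1 was 5.40-fold lower in 427 cells (log2 ratio -2.43) and 3.91-fold lower in KD-labelled cells (-1.97). Only 20 of the 10643 loci compared in 427 cells had a lower ratio than Dll1. Rbpj was 2.76-fold higher (1.46) in 427 cells and 3.06-fold higher (1.61) in KD-labelled cells, where 2.04% and 1.46% of loci had a higher ratio.

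Dll1 and Rbpj were 2 of 8 members compared in each cell type, the other pair being too low. Among all loci compared, 8.58% passed 2-fold with PMA in 427 cells and 9.21% in KD-labelled cells. The median log2 ratio of the 8 members was -0.61 in 427 cells, against -0.12 over all loci. In KD-labelled cells it was -0.37 against -0.15.

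The other ligands moved less. Jag2, a Serrate-type ligand, had 68.5 and 46.5 FPKM in 427 cells with DMSO and PMA, and 53.4 and 42.4 FPKM in KD-labelled cells, log2 ratios of -0.56 and -0.33. Jag1, of the same type, had 46.3 and 43.95 FPKM in 427 cells and 35.2 and 37.3 FPKM in KD-labelled cells. The sign of the Jag1 ratio, -0.08 in 427 cells, turned to 0.03 when the 427 libraries were centred on the median of all loci. With Dll1 low, the sum of the ligands was 179.5 FPKM with DMSO and 102.4 with PMA in 427 cells, and 149.9 and 95.4 FPKM in KD-labelled cells. The share of Dll1 in that sum was 35.9% and 11.7% in 427 cells, and 40.9% and 16.4% in KD-labelled cells. Jag1 and Jag2 together made up nearly all the rest in each library.

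**Figure D2:**
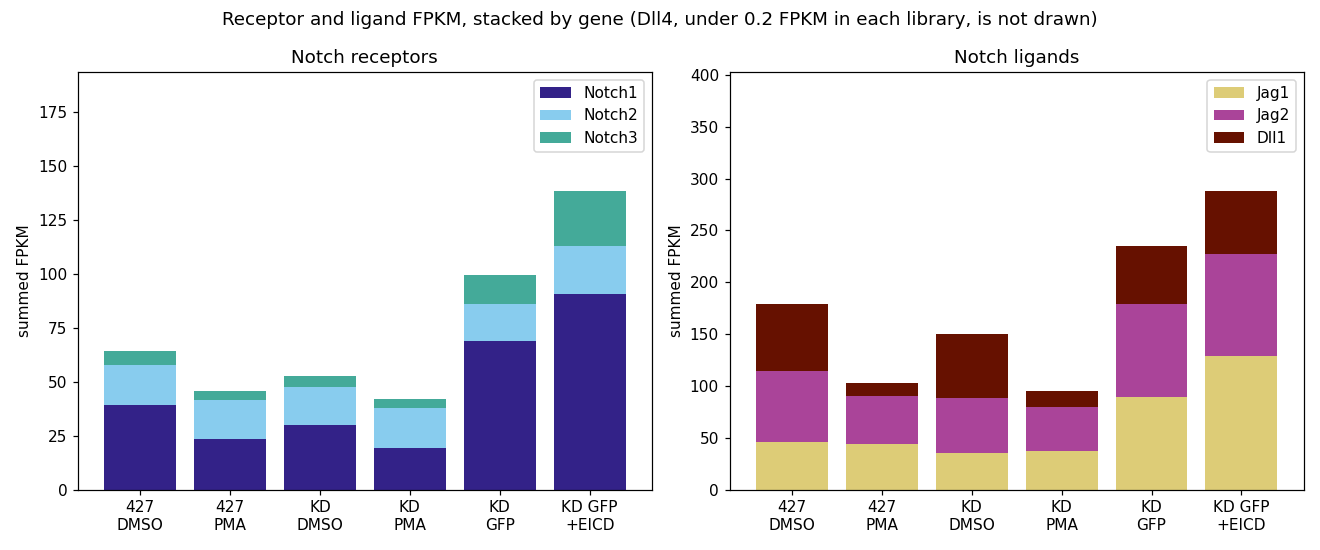
Summed FPKM of the Notch receptors (left) and ligands (right) in each library, stacked by gene, with Dll4 left out because it is too low to draw. The Dll1 segment is thin in both PMA libraries (11.95 and 15.6 FPKM), and both stacks are tallest in the transfected libraries.

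Notch1, Notch3 and Hes1 lay below their DMSO values with PMA without passing 2-fold, Notch2 differed little, and Hey1 was too low to be compared. Notch1 had 39.3 and 23.6 FPKM in 427 cells and 29.8 and 19.3 FPKM in KD-labelled cells (log2 ratios -0.73 and -0.62). Notch3 had 6.29 and 3.97 FPKM in 427 cells and 5.31 and 4.01 FPKM in KD-labelled cells (-0.67 and -0.40). Hes1, the repressor gene most often read as a Notch target, had 41.3 and 23.9 FPKM in 427 cells and 32.4 and 24.0 FPKM in KD-labelled cells (-0.79 and -0.43). In 427 cells 8.09% of loci lay lower than Hes1 and 9.42% lower than Notch1. In KD-labelled cells 2661 of 10624 loci lay lower than Hes1 and 1566 lower than Notch1. Notch2 had 18.4 and 18.0 FPKM in 427 cells and 17.5 and 18.4 FPKM in KD-labelled cells, so that its share of the receptor sum was 28.8% and 39.5% in the former. Hey1, another repressor gene of this class, stayed under 1 FPKM in these 4 libraries, with 0.996 and 0.441 FPKM in 427 cells and 0.659 and 0.357 FPKM in KD-labelled cells (log2 ratios -1.16 and -0.87). Centring on the median added 0.11 to each log2 ratio in 427 cells and 0.14 in KD-labelled cells. It left Dll1 at -2.32 and -1.83 and Rbpj at 1.57 and 1.75.

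The difference between the PMA ratios of 427 and KD-labelled cells was below 0 for all 8 members compared, from -0.46 (Dll1) to -0.11 (Notch2 and Notch1). No member passed 2-fold in this difference, whereas 3.27% of all loci did, and 50% of all loci were below 0. The median difference was -0.19. Both DMSO libraries enter this difference, and all 8 members were also lower in the KD-labelled than in the 427 DMSO library. Serum deprivation is not stated for the KD-labelled DMSO library. With PMA, Notch1 (23.6 and 19.3 FPKM), Jag1 (43.95 and 37.3) and Jag2 (46.5 and 42.4) were higher in 427 than in KD-labelled cells. Dll1 and Rbpj were lower in 427 cells with PMA, and Notch2, Notch3 and Hes1 slightly so. Epithelial markers moved in the same comparisons, with Cldn4 higher in both (log2 ratios 2.14 and 1.62) and Krt18 past 2-fold in 427 cells (1.26). Their summed level was 2723 and 3351 FPKM in 427 cells and 2638 and 2790 FPKM in KD-labelled cells with DMSO and PMA. Without Krt14 it was 569 and 1390 FPKM in 427 cells and 854 and 1435 FPKM in KD-labelled cells. The part of these shifts in the Notch values was not tested.

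Around the members, 67 further genes of the pathway were found, of which 51 were compared with PMA. In 427 cells 2 were past 2-fold higher and 4 lower, beside 8.58% of all loci past 2-fold. The higher were Ccnd1, a cyclin gene (23.8 and 97.8 FPKM with DMSO and PMA), and Tcf7, a T cell transcription factor gene (1.36 and 3.87 FPKM), both reported Notch targets. The lower were Aph1b, a gamma-secretase subunit (3.90 and 0.928 FPKM), Tle2, a corepressor (2.24 and 0.699 FPKM), the ligand-like gene Dlk2 (11.5 and 5.06 FPKM) and Hes6 (10.5 and 4.65 FPKM). In KD-labelled cells 3 were higher and 6 lower, beside 9.21% of all loci. Ccnd1 again had the largest ratio (15.8 and 121.2 FPKM), with Tcf7 and Myc the other pair. In 427 cells Myc fell just short of 2-fold, with 38.1 and 75.7 FPKM (log2 ratio 0.99). The lower genes included Aph1b, Dlk2, Hes6 and Neurl1b, a ligand ubiquitin ligase (log2 ratios -1.82, -1.70, -1.28 and -1.20). The median over the 51 genes was -0.18 in 427 cells and -0.20 in KD-labelled cells, against -0.12 and -0.15 over all loci. The sheddases Adam10 and Adam17 did not pass 2-fold in either, and the fourth receptor gene, Notch4, stayed under 1 FPKM.

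Between the 427 and KD-labelled cells without PMA, the Notch genes differed in level by less than 2-fold. All 8 members compared were lower in the KD-labelled DMSO library, where 44.1% of all loci were lower, but none passed 2-fold, as 5.87% of all loci did. Notch1 had 39.3 FPKM in 427 and 29.8 in KD-labelled cells, and Jag1 46.3 and 35.2 FPKM, each a log2 ratio of -0.40. Jag2 (-0.36), Hes1 (-0.35) and Notch3 (-0.25) followed. Dll1, Notch2 and Rbpj lay nearest to 0, all at -0.07. The median was -0.30 against 0.05 over all loci. None of 51 further pathway genes passed 2-fold. Sppl2b was not lower in this pair of libraries, and the part of SPPL2b in these ratios was not tested. Krt8 was 80.1 FPKM in 427 and 310.8 in KD-labelled cells, and the mesenchymal markers summed to 0.926 and 2.81 FPKM. Their part in the Notch ratios was not tested.

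The transfected libraries held the highest levels of Hes1, Jag1, Jag2, Notch1 and Notch3, already with GFP alone. Against the KD-labelled DMSO library, 4 of 8 members compared were past 2-fold higher with GFP and none lower, while 7.69% of all loci passed 2-fold and 3.56% did so upward. Hes1 had 32.4 FPKM with DMSO and 106.2 with GFP, 3.27-fold higher (log2 ratio 1.71), and 1.33% of loci had a higher ratio. Jag1 had 35.2 and 89.7 FPKM (1.35), Notch3 5.31 and 13.3 FPKM (1.32), and Notch1 29.8 and 69.0 FPKM (1.21). These levels of Hes1, Jag1, Notch1 and Notch3 also exceeded those of both 427 libraries. Jag2 had 53.4 and 88.9 FPKM (0.74), short of 2-fold.

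Other members differed little. Notch2 had 17.5 and 16.9 FPKM (-0.05, and 0.03 after centring on the median), Dll1 61.3 and 56.7 FPKM (-0.11), and Rbpj 21.3 and 18.5 FPKM (-0.20). Hey1, under 1 FPKM in both, had 0.659 and 0.807 FPKM. Receptors therefore summed to 52.6 FPKM with DMSO and 99.2 with GFP, and the share of Notch1 was 56.6% and 69.5%. Ligands summed to 149.9 and 235.3 FPKM, in which Jag1 took 23.5% and 38.1%. The median over the 8 members was 0.97, against -0.08 over all loci.

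Of 51 further pathway genes 5 were higher with GFP and 1 lower, beside 7.69% of all loci past 2-fold and 3.56% higher. The higher genes were the reported targets Ccnd1 (15.8 and 53.1 FPKM), Sox9 (19.2 and 49.7 FPKM), Myc (33.0 and 77.7 FPKM) and Nrarp, a feedback inhibitor of Notch signalling (3.15 and 7.23 FPKM), and the coactivator gene Maml3. Snai1 was the lower one, with 1.25 and 0.569 FPKM. The median of the 51 was -0.06, against -0.08 over all loci. Of the 6 epithelial markers Krt14 was higher (log2 ratio 1.10) and Krt8 lower (-1.12), and the sum of the 6 was 2638 FPKM with DMSO and 4436 with GFP. Without Krt14 it was 854 and 616 FPKM. The leukocyte marker Csf1r was lower (-1.31), and the mesenchymal markers summed to 2.81 and 0.942 FPKM. The part of these in the Notch ratios was not tested. Transfection, sorting, serum and clone may each differ between these libraries and cannot be told apart.

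**Figure D3:**
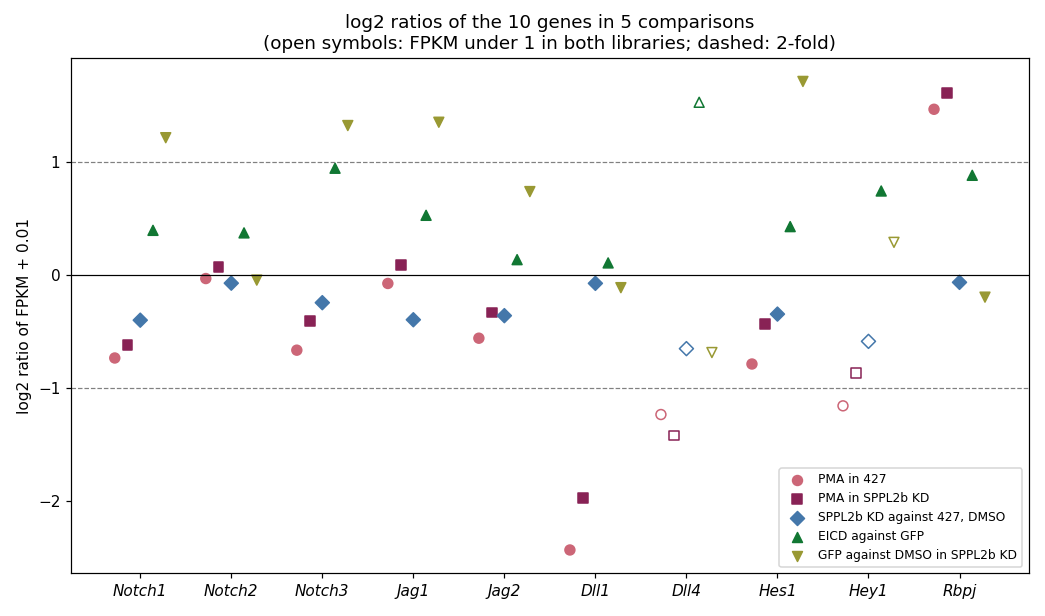
log2 ratio of FPKM + 0.01 (vertical axis) of each of the 10 genes in 5 comparisons, 1 symbol per comparison, open where both libraries were under 1 FPKM, with dashed lines at 2-fold. The filled symbols past 2-fold are Dll1 and Rbpj with PMA and Notch1, Notch3, Jag1 and Hes1 with GFP.

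With EICD the 8 members that had 1 FPKM or more in both libraries were all higher than with GFP alone, in a comparison in which 58.2% of all loci were higher, or 57.4% of those at 1 FPKM or more in both. None passed 2-fold, as 4.07% of all loci did, or 252 of the 10298 loci at 1 FPKM or more in both. Notch3 came closest, with 13.3 FPKM in the GFP library and 25.5 in the EICD library (1.92-fold, log2 ratio 0.94), and 4.05% of loci had a higher ratio. Rbpj followed with 18.5 and 34.1 FPKM (0.88). Hey1 had 0.807 and 1.36 FPKM (0.74), and since it reached 1 FPKM only in the EICD library it is not counted with the 8. Jag1 had 89.7 and 129.2 FPKM (0.53), Hes1 106.2 and 142.7 FPKM (0.43), and Notch1 69.0 and 90.7 FPKM (0.39). Notch2 had 16.9 and 21.9 FPKM (0.37), whereas it lay between 16.9 and 18.4 FPKM in all 5 libraries without EICD. Jag2 (88.9 and 97.7 FPKM) and Dll1 (56.7 and 61.0 FPKM) differed least, with log2 ratios of 0.13 and 0.11. Scaled to the same upper quartile, these ratios were 0.04 and 0.01, close to no difference. The median over the 8 members was 0.41, against 0.06 over all loci at 1 FPKM or more in both libraries.

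The share of Notch3 in the receptor sum was 13.4% with GFP and 18.5% with EICD, and the sum was 99.2 and 138.1 FPKM. The ligand sum was 235.3 and 288.0 FPKM. Dll4 had 0.0511 and 0.166 FPKM, about 4.88 and 16.4 fragments. Its log2 ratio of 1.53 became 0.15 with 1 added to each library. Of 50 further pathway genes, the corepressor gene Tle2 was the 1 past 2-fold higher (2.86 and 6.98 FPKM, log2 ratio 1.28) and none was lower, beside 4.07% of all loci. Their median was 0.13, against 0.07. Krt8 was past 2-fold lower with EICD (log2 ratio -1.02) and the epithelial sum was 4436 and 2967 FPKM, or 616 and 511 without Krt14. Their part in the Notch ratios was not tested.

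The comparisons are not independent of each other. The KD-labelled DMSO library is the base of the PMA comparison in KD-labelled cells and of the GFP comparison, and it enters the comparison with 427 cells as well. Both DMSO libraries enter the comparison with 427 cells and the difference between the PMA ratios. The GFP library is the base of the EICD comparison. Side by side, the log2 ratios of Hes1 were -0.79 and -0.43 with PMA, 1.71 with GFP and 0.43 with EICD. Those of Rbpj were 1.46 and 1.61 with PMA, -0.20 with GFP and 0.88 with EICD. Hes1 and Rbpj thus had opposite signs with PMA and with GFP and the same sign with EICD. A minimum leaves a ratio unchanged, and the scalings shifted ratios by at most 0.14, too little to turn any of these signs. Dll1, at -2.43 and -1.97 with PMA, had -0.11 with GFP and 0.11 with EICD.

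**Figure D4:**
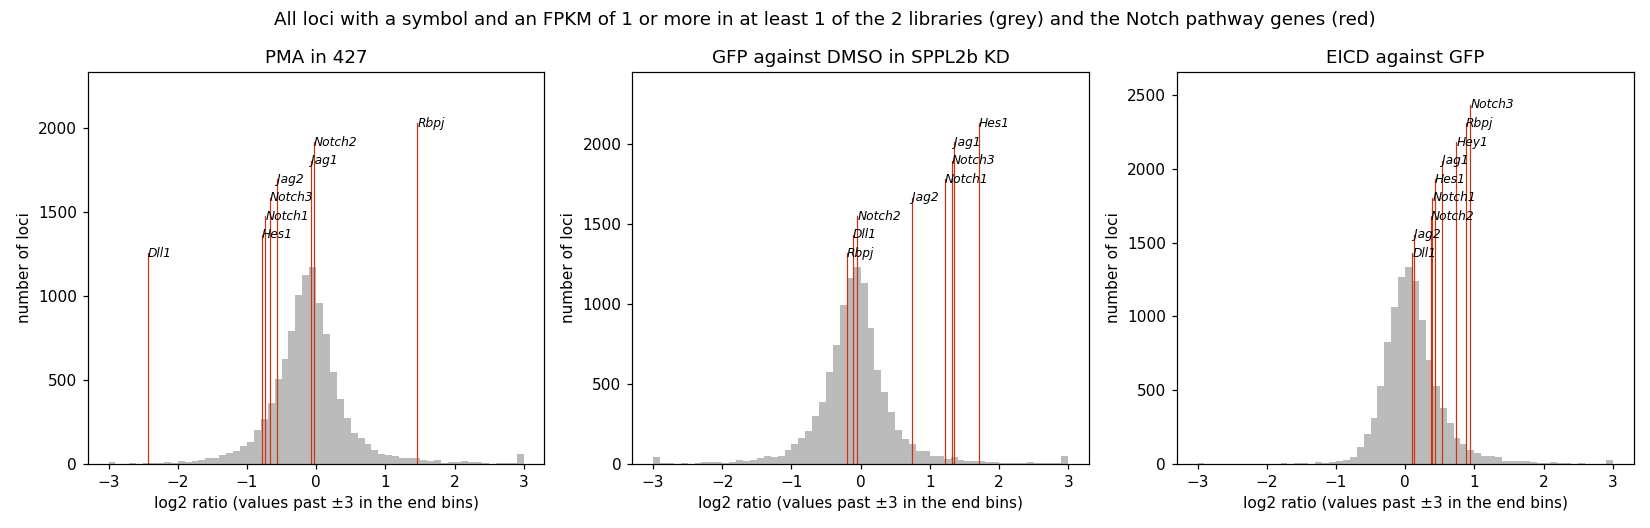
Number of loci (vertical axis) by log2 ratio (horizontal axis, values past 3 in the end bins) in 3 comparisons, in grey, with a red line at each member that was compared; the height of a red line only spaces the names. Dll1 (-2.43) and Rbpj (1.46) stand in the tails with PMA in 427 cells, Hes1, Jag1, Notch3 and Notch1 in the upper tail with GFP, and the members drawn above 0 with EICD. Hey1 is drawn with EICD because it reached 1 FPKM in the EICD library only, so its place above 0 follows from that minimum.

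Profiles over the 6 libraries were compared with those of 2638 loci by Pearson's r of log2 FPKM, as a description, for the 7 members that had 1 FPKM or more in all 6 libraries and spanned more than 2-fold. Dll4 and Hey1 were too low and Notch2 spanned too little. Points were few and shared library, depth and base conditions, so that many loci matched each member: from 35 for Rbpj to 98 for Notch1 had r over 0.95. Nearest to Dll1 were Aim1 (r = 0.994), Ephb3, an ephrin receptor gene (0.992), and Uevld (0.989). Ephb3 had 30.7 and 9.93 FPKM in the 427 libraries. Nearest to Rbpj were Slco2a1, a prostaglandin transporter gene (0.993), Abtb2 (0.991) and the chemokine gene Cx3cl1 (0.988). Cx3cl1 had 3.39 and 11.6 FPKM in the 427 libraries, and 2.33 and 5.86 FPKM in the GFP and EICD libraries.

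Nearest to Notch1 were Sord, Plcd1 and Epb41l4b (0.996, 0.995 and 0.995), and to Jag2 Epb41l4b, Zfp385a and Plekhg6 (0.996, 0.994 and 0.993). Nearest to Notch3 were Gltscr1l, Dsg3 and Mmp28 (0.992, 0.991 and 0.990), and to Hes1 Sh3bp1, Ring1 and Dsg3 (0.996, 0.996 and 0.993). Dsg3, a desmosomal cadherin gene of stratified epithelium, had 40.8 FPKM in the KD-labelled DMSO library, 102.0 with GFP and 156.6 with EICD. Nearest to Jag1 were Cblc, the zinc finger repressor gene Snai2 and Zfp36l1 (0.996, 0.995 and 0.992).

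In the annotation (GENCODE M21, GRCm38) Dll1 and Notch3 lie on chromosome 17, at 15367354 to 15376872 and 32120820 to 32166852, and Rbpj on chromosome 5 at 53466152 to 53657362. Notch1 lies on chromosome 2 at 26457903 to 26516663, with Jag1 and Dll4 on the same chromosome. Exons of 5 members share bases with another annotated gene, among them 867 of 4219 exon bases of Dll1 with A930024N18Rik and 1068 of 14232 of Notch1 with 0610009E02Rik, both on the opposite strand. Since the strand setting is not stated, reads of those partners cannot be told from those of the members. For Hes1, Hey1, Rbpj, Jag1 and Jag2 no such sharing was found.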

How the data were processed

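RNA of 6 libraries, 1 per condition, was sequenced as paired-end mRNA reads. The authors deposited 1 FPKM value per locus and library on GRCm38, and the submitters' processing notes name TopHat2 2.1.1, Cufflinks 2.1.1, Cuffdiff 2.1.1 and STAR 2.4.0b. FPKM depends on the assembled gene models, 12836 of the 25001 loci being annotated genes with new isoforms, every member among them. Samples were grouped by their labels.

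From the deposited FPKM, log2 ratios were computed with 0.01 added (Python 3.11.15, NumPy 2.4.6, pandas 2.3.3, SciPy 1.17.1, matplotlib 3.10.9). The script was tested on simulated data. Loci needed a symbol and 1 FPKM or more in at least 1 library compared, and were called past 2-fold. With 1 library per condition there was no test. Depth was estimated from the lowest values of single-transcript genes over 2500 bases, and fragments per gene from its longest transcript.

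All members were named, and of 71 listed pathway genes the 4 with the largest ratios in each direction past 2-fold. Maml3 was named after its values were seen, as were the markers given with values. For 4 listed pathway and 3 marker genes no annotated row of their own was found. The 3 most alike loci were named for each member that had 1 FPKM or more in all libraries and spanned 2-fold. Members and lists were chosen with earlier results of these data known. Alternatives changed the amount added to both libraries (0.1 or 1), the minimum and the scaling, or counted loci without a symbol as well. For EICD against GFP, 0.01 or 0.001 was also added to the EICD library alone, without loci under 0.01 FPKM in the GFP library. Promoter windows came from RefSeq.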

Additional observations from a re-analysis of the deposited data

Results flagged for a closer look

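PMA log2 ratios pointed in opposite directions in 427 and KD-labelled cells for 2 members, and the difference was not tested. For Notch2 the ratio was -0.03 in 427 cells and 0.07 in KD-labelled cells, a difference of -0.11. For Jag1 it was -0.08 and 0.09, a difference of -0.16. Centring on the median of all loci made both 427 ratios positive, 0.08 for Notch2 and 0.03 for Jag1.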

How the results depend on the processing

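Among members compared in the report, calls kept their direction and their side of 2-fold under each alternative run that could be computed. The signs that changed with scaling were those of Notch2 and Jag1 with PMA in 427 cells and of Notch2 with GFP (-0.05 to 0.03). Without a minimum, 4 of 10 members were past 2-fold with PMA in 427 cells, beside 3292 of 15483 loci, Dll4 and Hey1 joining as lower. With PMA in KD-labelled cells 3 of 10 were, beside 3360 of 15217 loci, Dll4 (-1.42) joining as lower. With EICD 1 of 10 was, Dll4, beside 2978 of 15984 loci. Of the further pathway genes, 12 of 61 passed 2-fold without a minimum with PMA in 427 cells and 20 of 64 in KD-labelled cells. For EICD 6 of 62 did, and for GFP 13 of 62, the latter beside 3663 of 15618 loci. With a minimum of 10 FPKM, 3 of 39 passed with PMA in 427 cells, beside 355 of 7543 loci. In KD-labelled cells 5 of 39 did, beside 429 of 7644 loci. For EICD 0 of 40 did, beside 138 of 7616 loci, and for GFP 3 of 39, beside 298 of 7646 loci. For KD-labelled against 427 cells 8 of 62 pathway genes passed without a minimum, beside 3175 of 15438 loci. With 1 added, 3 of 51 passed for GFP, beside 457 of 10687 loci.

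Counts over all loci moved most. With PMA in 427 cells 913 loci passed 2-fold, against 494 with 1 added, 3292 without a minimum and 355 with a minimum of 10. With PMA in KD-labelled cells 978 passed, against 567, 3360 and 429. For KD-labelled against 427 cells 628 passed, against 354, 3175 and 192, and 351 with a minimum of 1 in both libraries. For EICD 435 passed, against 198, 2978 and 138, and 252 with a minimum of 1 in both. For GFP 822 passed, against 457, 3663 and 298, and 508 with a minimum of 1 in both. The split changed as well. With PMA in 427 cells 416 loci were higher and 497 lower, against 305 and 189 with 1 added, 449 and 416 scaled to the upper quartile, and 481 and 386 centred on the median. In KD-labelled cells these were 373 and 605, against 292 and 275 with 1 added, 440 and 462 scaled to the upper quartile, and 489 and 409 centred on the median. For EICD they were 379 and 56, against 2012 and 966 without a minimum. Centring turned 380 and 442 into 442 and 376 for GFP, and 333 and 295 into 305 and 321 for KD-labelled against 427 cells. The causes were not tested. Depth limits Dll4 and Hey1, and single libraries limit all values. Of the single-gene values, 55 moved under an alternative by more than a tolerance set from the estimated fragments, and 292 did not. That tolerance is wide for genes with few fragments. Dll4 with EICD, at 1.53 and at 0.15 with 1 added, counted as not moved. Changing the minimum cannot change a ratio, and those runs are among the 292.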
